A study of Mus musculus with 16 samples.

Results

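The 10 genes described here, Spp1, Trem2, Gpnmb, Cd9, Cd63, Apoe, Lpl, Abca1, Fabp5 and Lgals3, are markers of the lipid- and scar-associated macrophages known from fatty, fibrotic and atherosclerotic tissue. They were taken by symbol from the 48795 gene identifiers of the count table, and all 10 were found. In such macrophages the receptor TREM2 binds lipids, lipoproteins and cell debris and signals through the adaptor TYROBP. Cholesterol taken up is stored, or leaves the cell through the transporter ABCA1 to form lipoprotein particles with APOE, under the control of the oxysterol receptor LXR. Osteopontin (Spp1), GPNMB, galectin-3 (Lgals3) and the tetraspanins CD9 and CD63 are the other products by which these cells are recognised in injured liver, where they have been found next to scars and bile ducts.

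The series measured RNA of sorted liver cells from mice aged 4 weeks carrying the Ift88Orpk allele, an insertion allele of the cilium gene Ift88 that gives cysts and fibrosis around bile ducts, and from wild-type mice. Both genotypes were studied in the strains BALB/c and C57BL/6 and in 4 populations: DBA-sorted cells labelled cholangiocytes, neutrophils, Ly6Chi infiltrating macrophages and Ly6Clo infiltrating macrophages. Each of the 16 groups was 1 library, made from RNA pooled over 6 to 8 mice, so no group had a replicate. A genotype comparison therefore takes the strains as its replicates and a strain comparison the genotypes. P-values rest on the spread between such pools and not between single mice. In the genotype and strain tests, any real difference of the genotype effect between the strains is counted as part of this spread. The Ift88Orpk mice carry the allele in every cell, so a difference between genotypes in a leukocyte is not tied to an action of the allele in that leukocyte.

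The genes lie on mouse chromosomes 5 (Spp1), 17 (Trem2), 6 (Gpnmb and Cd9), 10 (Cd63), 7 (Apoe), 8 (Lpl), 4 (Abca1), 3 (Fabp5) and 14 (Lgals3). In the GRCm38 build Abca1 (ENSMUSG00000015243) spans chr4:53030787-53159895 on the minus strand, Trem2 (ENSMUSG00000023992) chr17:48346401-48354147 and Gpnmb (ENSMUSG00000029816) chr6:49036546-49070929 on the plus strand, and each is protein-coding.

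The libraries held 10170795 to 26093556 gene counts. In both DBA pairs Ift88 itself was lower in Ift88Orpk, and in the 6 leukocyte pairs it was higher, and a count over the whole gene does not tell the insertion allele from the intact one. In DBA libraries the 11 sinusoidal endothelial markers summed to 14500 to 23490 CPM, the counts scaled to library size, against 524 to 968 CPM for 12 cholangiocyte markers, so these libraries are called DBA-sorted cells. The 10 markers of macrophages summed to 13060 to 19090 CPM in Ly6Chi and 4447 to 5420 CPM in Ly6Clo libraries, and 2911 to 9799 CPM in neutrophil libraries. In bulk libraries, fewer cells of a type and less RNA per cell cannot be told apart.

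The start regions of 3 of the genes are shown because the results below turn on them. Abca1 was higher in Ift88Orpk than in wild type in every pair. Trem2 and Gpnmb were low in DBA-sorted cells and varied over the macrophage libraries, though Gpnmb varied little within Ly6Chi. RefSeq windows of the GRCm38.p6 build, from 250 bases before to 50 bases after the start, were at hand for 8 of the 10 genes. They are written 5′ to 3′ on the gene's strand, and capitals mark matches to 4 motifs searched on both strands.
Abca1 (chr4:53159846-53160145, minus strand): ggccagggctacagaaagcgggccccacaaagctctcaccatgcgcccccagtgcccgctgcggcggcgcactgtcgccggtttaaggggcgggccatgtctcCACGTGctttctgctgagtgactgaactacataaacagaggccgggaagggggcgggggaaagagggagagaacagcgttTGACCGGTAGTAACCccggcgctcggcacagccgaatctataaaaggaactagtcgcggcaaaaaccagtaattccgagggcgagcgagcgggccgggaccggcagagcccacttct
Trem2 (chr17:48346151-48346450, plus strand): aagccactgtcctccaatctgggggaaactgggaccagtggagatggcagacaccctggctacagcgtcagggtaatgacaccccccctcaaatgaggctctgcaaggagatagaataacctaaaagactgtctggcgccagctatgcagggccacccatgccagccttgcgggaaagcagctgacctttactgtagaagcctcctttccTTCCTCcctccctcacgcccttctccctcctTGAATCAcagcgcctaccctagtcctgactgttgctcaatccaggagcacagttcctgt
Gpnmb (chr6:49036268-49036567, plus strand): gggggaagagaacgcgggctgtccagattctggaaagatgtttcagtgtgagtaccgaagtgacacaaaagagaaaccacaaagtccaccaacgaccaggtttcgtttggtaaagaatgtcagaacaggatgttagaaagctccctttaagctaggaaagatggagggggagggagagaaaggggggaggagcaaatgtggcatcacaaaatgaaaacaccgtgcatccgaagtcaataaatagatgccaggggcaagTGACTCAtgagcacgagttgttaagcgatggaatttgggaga
The Abca1 window held a match to TGACCGNNNNTAACC, the form of the LXR direct repeat known from the Abca1 gene, beginning 67 bases before the start. The string was taken from that gene, so this match was fixed by the choice of letters, and its share of 4 in 32851 mouse promoter windows of the same length (0.0122%) says nothing about Abca1. The Abca1 window also held CACGTG, the E-box read by MiT/TFE factors of lysosome genes, which 7.15% of all windows held. The Trem2 and Gpnmb windows each held TGANTCA, a loosened form of the AP-1 site, whose middle base is usually C or G. It read TGAATCA in Trem2, beginning 9 bases before the start, with an A in the middle. In Gpnmb it read TGACTCA, beginning 8 bases after the RefSeq start. With any middle base, the string was in 7.81% of windows. GAGGAA, the core bound by the myeloid factor PU.1, was in 28.3%, among them the Trem2 window. There it lies on the opposite strand and is capitalised as TTCCTC. A match is a string in the sequence and does not show that a factor bound there.

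The 10 genes covered a wide range of levels, as the plot of levels by library shows. Compared per length, as mean CPM per kilobase of exon over the 4 libraries of a population, Apoe, the lipoprotein ligand, was the highest of the 10 in DBA-sorted cells (279.9 ± 34.3, SD, n = 4), Ly6Chi (323 ± 189) and Ly6Clo macrophages (284 ± 152). In neutrophils Cd9, a tetraspanin also known from platelets and granulocytes, stood first (174 ± 72.9) beside Apoe (171 ± 38.4), a difference well within their spread. Lgals3, a sugar-binding protein made by most macrophages, was second in Ly6Chi (223 ± 18.7) and Ly6Clo (88.2 ± 9.36) macrophages. Spp1, which bile duct epithelium also makes, was second in DBA-sorted cells (268 ± 88.4). Trem2, Gpnmb and Cd63 were among the lowest 4 in Ly6Chi and Ly6Clo macrophages, at 1.22 to 6.32 CPM per kilobase. The spread over libraries was small for some genes and large for others: in Ly6Chi macrophages the SD was 2.04 CPM around a mean of 23.0 CPM for Gpnmb, but 23.8 CPM around 31.2 CPM for Trem2.

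**Figure D1:**
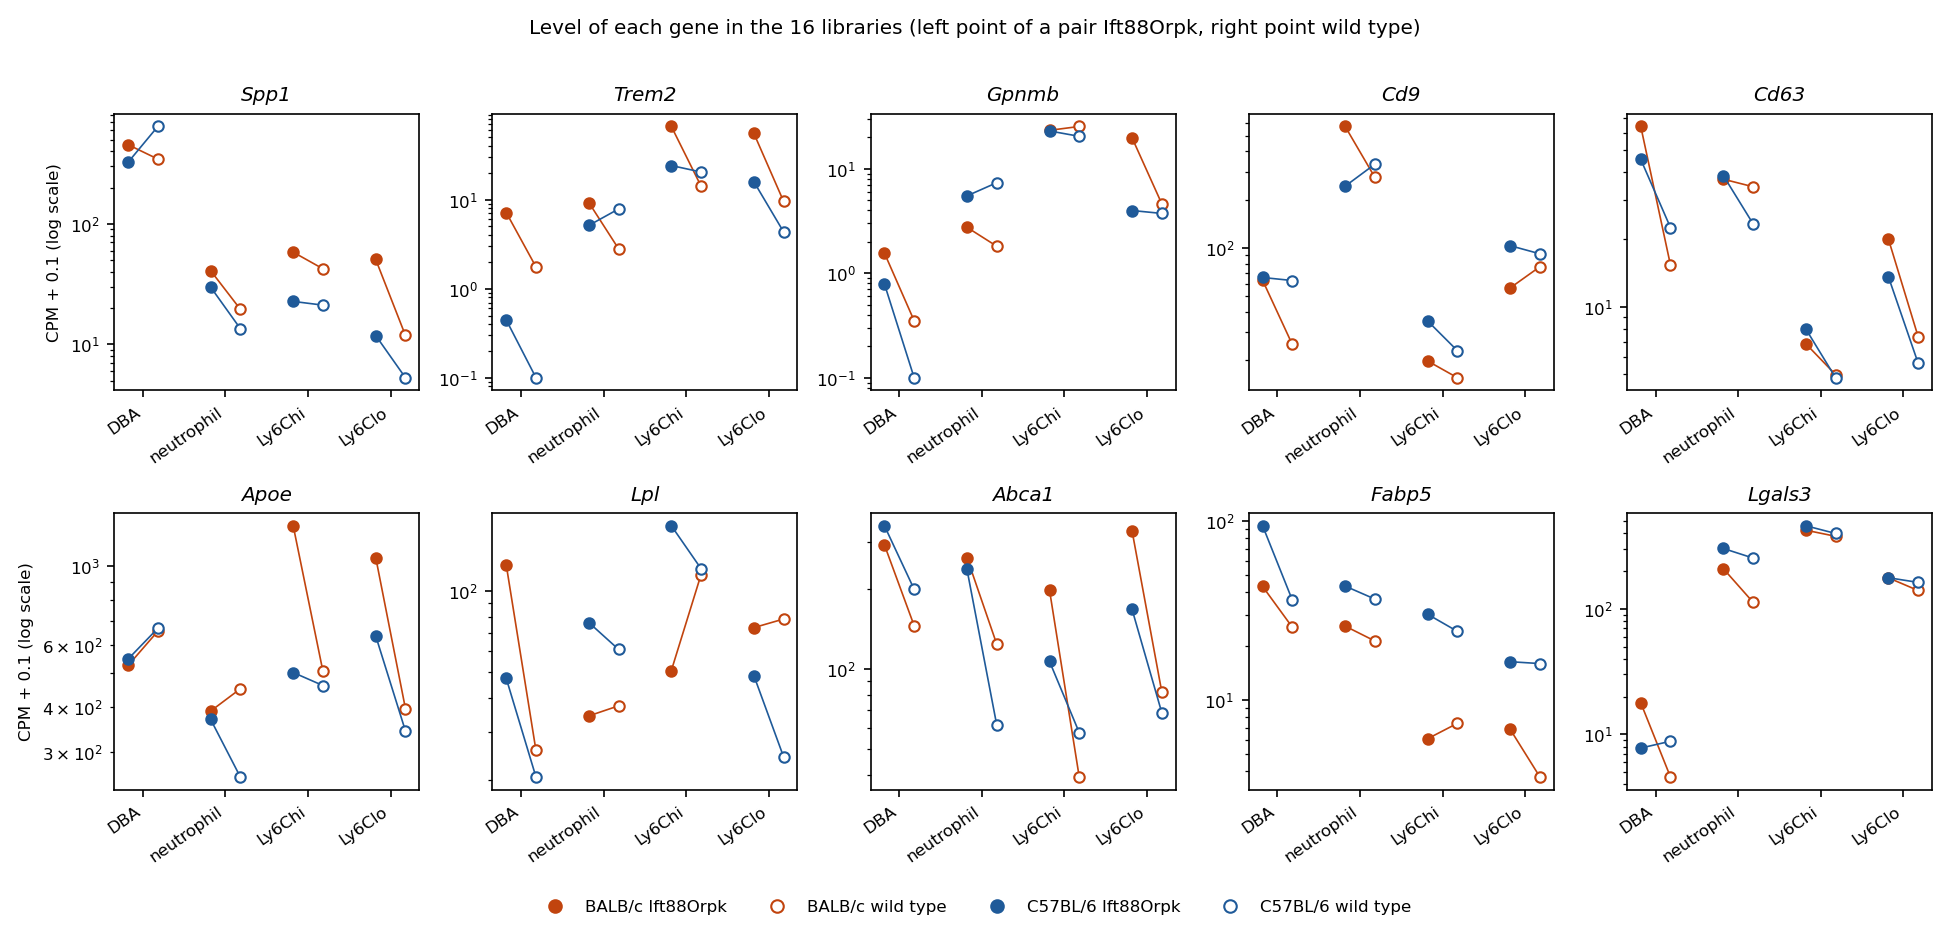
Level of each of the 10 genes in the 16 libraries, as CPM plus 0.1 on a log scale, by population; filled points are Ift88Orpk libraries, open points wild type, and lines join the 2 libraries of a strain. All 8 Abca1 lines fall towards the wild type, while Gpnmb in Ly6Chi macrophages stays between 20.4 and 25.3 CPM.

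Ly6Chi were compared with Ly6Clo macrophages, the populations that differ in the monocyte antigen Ly6C, in their 8 libraries within each combination of strain and genotype. The 10 genes split between them: Spp1, Gpnmb and Lgals3 were higher in Ly6Chi and Cd9, Cd63 and Abca1 were lower, by edgeR's quasi-likelihood test with Benjamini-Hochberg adjustment over 16664 genes. These 6 of 10 called genes stand beside a background of 24.5% of all genes called in this comparison, 12.3% higher and 12.2% lower. In what follows, 4 values in a row are those of BALB/c Ift88Orpk, BALB/c wild type, C57BL/6 Ift88Orpk and C57BL/6 wild type libraries.

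Lgals3 was at 423, 378, 459 and 398 CPM in Ly6Chi, against 176.5, 139.9, 177 and 162 CPM in Ly6Clo macrophages. The libraries of each population lay close together and the populations did not overlap, as 19.4% of all genes did not. The log2 fold change was 1.33 ± 0.07 (SE, adjusted p = 2.2e-05). Gpnmb, a lysosomal and surface glycoprotein, was at 23.3, 25.3, 22.9 and 20.4 CPM in Ly6Chi, against 19.7, 4.53, 3.89 and 3.64 CPM in Ly6Clo macrophages. The populations were again apart, but the BALB/c Ift88Orpk Ly6Clo library came close to the Ly6Chi level. The log2 fold change was 1.92 ± 0.39 (adjusted p = 0.00789). Without the C57BL/6 Ift88Orpk Ly6Chi library it did not pass (1.70, adjusted p = 0.052).

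Spp1, the secreted ligand osteopontin, was at 58.1, 42.3, 22.6 and 21.1 CPM in Ly6Chi, against 50.5, 11.8, 11.7 and 5.18 CPM in Ly6Clo macrophages. It was higher in Ly6Chi in all 4 combinations, and the populations overlapped because of the BALB/c Ift88Orpk Ly6Clo library. The log2 fold change was 1.20 ± 0.28 (adjusted p = 0.0149). It did not pass without the C57BL/6 wild-type Ly6Chi library (adjusted p = 0.0563), the BALB/c wild-type Ly6Chi library (0.0612) or the BALB/c wild-type Ly6Clo library (0.0576).

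Cd9 was at 19.7, 15.5, 35 and 22.8 CPM in Ly6Chi, against 56.4, 76.5, 103.4 and 92.0 CPM in Ly6Clo macrophages. It was the member with the largest difference towards Ly6Clo, with no overlap (log2 fold change -1.86 ± 0.14, adjusted p = 7.62e-05). Abca1, the cholesterol exporter, was at 198.2, 39.2, 106.9 and 57.7 CPM in Ly6Chi, against 331.1, 82.1, 167.8 and 68.6 CPM in Ly6Clo macrophages. The populations overlapped, but Ly6Chi was lower in each of the 4 combinations (log2 fold change -0.69 ± 0.12, adjusted p = 0.00445). Cd63, a tetraspanin of late endosomes, was at 6.75, 4.89, 7.87 and 4.73 CPM in Ly6Chi, against 19.98, 7.27, 13.5 and 5.52 CPM in Ly6Clo macrophages. Its difference (-0.82 ± 0.24, adjusted p = 0.0394) did not pass when any 1 of 6 of the 8 libraries was left out, all but the C57BL/6 wild-type ones (log2 fold change -0.89 to -0.55, adjusted p = 0.0653 to 0.147). Without the block of strain and genotype, Spp1, Gpnmb, Cd63 and Abca1 did not pass (adjusted p = 0.109 to 0.543), nor in a fit of all 16 libraries (0.0956 to 0.164), while Lgals3 and Cd9 did.

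The other 4 genes did not pass the test. Trem2 was at 66.4, 14.1, 24.1 and 20.4 CPM in Ly6Chi, against 55.4, 9.46, 15.8 and 4.25 CPM in Ly6Clo macrophages, and was higher in Ly6Chi in each combination (log2 fold change 0.84 ± 0.28, adjusted p = 0.0635). It passed by DESeq2 (0.88, adjusted p = 0.00857) and with no filter on low counts (0.86, adjusted p = 0.00279). Lpl, lipoprotein lipase, was at 50.6, 114.8, 174.1 and 120.7 CPM in Ly6Chi, against 73.0, 78.5, 48.4 and 24.2 CPM in Ly6Clo macrophages. It was higher in Ly6Chi in 3 combinations and lower in BALB/c Ift88Orpk (1.04 ± 0.42, adjusted p = 0.109). Without either BALB/c Ift88Orpk library it passed, at 1.56 (adjusted p = 0.00788 without the Ly6Chi and 0.00401 without the Ly6Clo library). Fabp5, which carries fatty acids in the cytosol, behaved likewise (0.58 ± 0.21, adjusted p = 0.0781, and 0.0108 and 0.0101 without these libraries). Apoe averaged 691 ± 405 CPM in Ly6Chi and 608 ± 325 CPM in Ly6Clo macrophages (SD, n = 4 each, adjusted p = 0.365 by edgeR). Markers of other leukocytes differed between the populations: those of dendritic cells summed to 29.3 to 115.9 CPM in Ly6Chi and 287 to 662.9 CPM in Ly6Clo libraries, and those of T and NK cells to 6.42 to 137.3 CPM in Ly6Chi and 173.9 to 949.7 CPM in Ly6Clo libraries. Their part in the differences of the 10 genes was not tested.

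**Figure D2:**
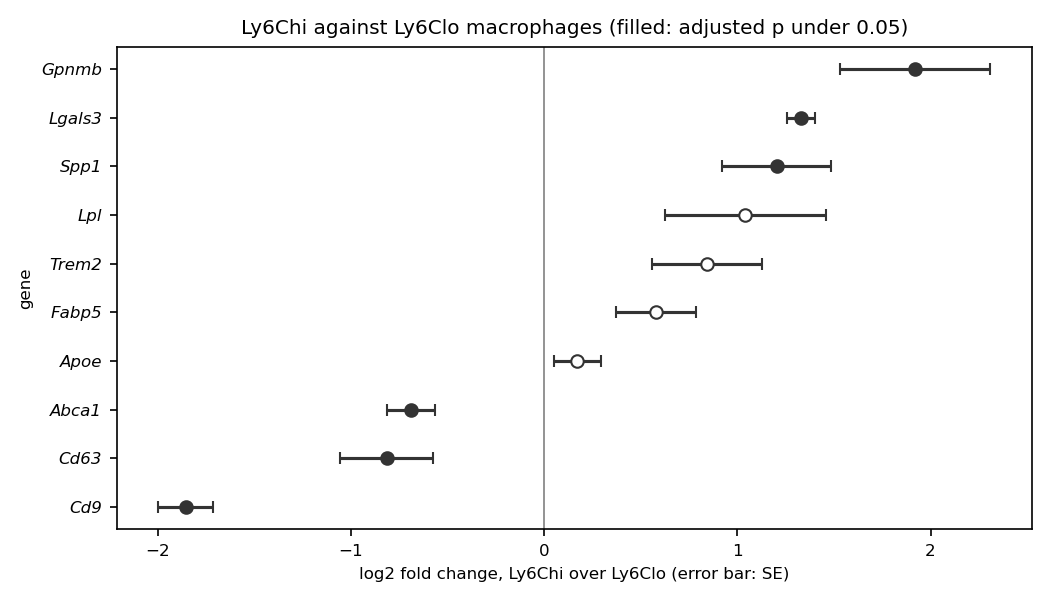
Log2 fold change of the 10 genes, Ly6Chi over Ly6Clo macrophages, from 8 libraries blocked by strain and genotype; error bars are SE and filled points passed an adjusted p of 0.05. Gpnmb, Lgals3 and Spp1 lie right of 0 with filled points, and Cd63, Abca1 and Cd9 left of it.

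Genes that work with these 10 differed to varying extents between the macrophage populations. Of 24 other lipid- and scar-associated macrophage genes tested, 11 were higher and 6 lower in Ly6Chi, with a median log2 fold change of 0.26, against -0.01 over all genes. The lower ones included the integrin Itgax (-2.11 ± 0.16, adjusted p = 8.62e-05) and the cystatin Cst7 (-3.44 ± 0.33, adjusted p = 0.000233), and the higher ones Anxa5, annexin A5 (0.81 ± 0.09, adjusted p = 0.000335). Dendritic cell markers were lower in 7 of 9 (median -2.87) and T and NK cell markers in 7 of 11 (median -3.85), with none higher. The part of these cells in the partner gene differences was not tested. Of 9 genes of TREM2 signalling and shedding, 7 were higher and none lower (median 0.40). Among them were the adaptor Tyrobp (0.81 ± 0.07, adjusted p = 0.000162), the kinase Syk (0.40 ± 0.06, adjusted p = 0.00247), its downstream adaptor Card9 (0.57 ± 0.08, adjusted p = 0.00171), and Grn, progranulin (0.79 ± 0.10, adjusted p = 0.000674). Of 21 genes of lysosomes and MiT/TFE factors, 15 were higher and 1 lower (median 0.70), with the membrane proteins Lamp1 (1.12 ± 0.07, adjusted p = 3.97e-05) and Lamp2 (0.98 ± 0.09, adjusted p = 0.000156) and the cholesterol carrier Npc2 (1.56 ± 0.11, adjusted p = 5.02e-05) among the higher ones.

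Of 15 LXR target and cholesterol handling genes, 6 were higher and 2 lower in Ly6Chi (median 0.16). Among the higher ones were the scavenger receptor Scarb1 (1.02 ± 0.07, adjusted p = 6.42e-05) and Soat1, which esterifies cholesterol (0.74 ± 0.07, adjusted p = 0.000141). Mylip, an LXR target that encodes a ubiquitin ligase, was lower (-0.64 ± 0.09, adjusted p = 0.0012), as Abca1 was. Of 15 lipoprotein and lipase partners, 3 were higher, the uptake receptor Lrp1 (0.73 ± 0.06, adjusted p = 7.61e-05), Apob and Apoc1, and none was lower. All 11 hepatocyte markers also had values above 0 (median 0.45), with 7 called higher and none lower. The part of hepatocyte RNA in these differences was not tested. Of 8 osteopontin receptor genes, 3 were higher, Itga5 (1.22 ± 0.10, adjusted p = 0.000103), Cd44 (0.80 ± 0.07, adjusted p = 0.000119) and Itga4 (0.36 ± 0.11, adjusted p = 0.0415), and 2 were lower, of which Itga9 was at -0.90 ± 0.23 (adjusted p = 0.0202). Of 9 other tetraspanins, 4 were higher and 3 lower, the lower ones being Cd82 (-1.48 ± 0.12, adjusted p = 8.72e-05), Cd81 (-1.42 ± 0.15, adjusted p = 0.000407) and Tspan3 (-0.94 ± 0.18, adjusted p = 0.00646). Of 5 other galectin genes tested 3 were higher, among them Lgals9 (0.92 ± 0.13, adjusted p = 0.00154). Of 3 other fatty acid binding protein genes, Fabp4, which is also counted among the other lipid- and scar-associated macrophage genes, was lower (-2.62 ± 0.30, adjusted p = 0.000479).

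**Figure D3:**
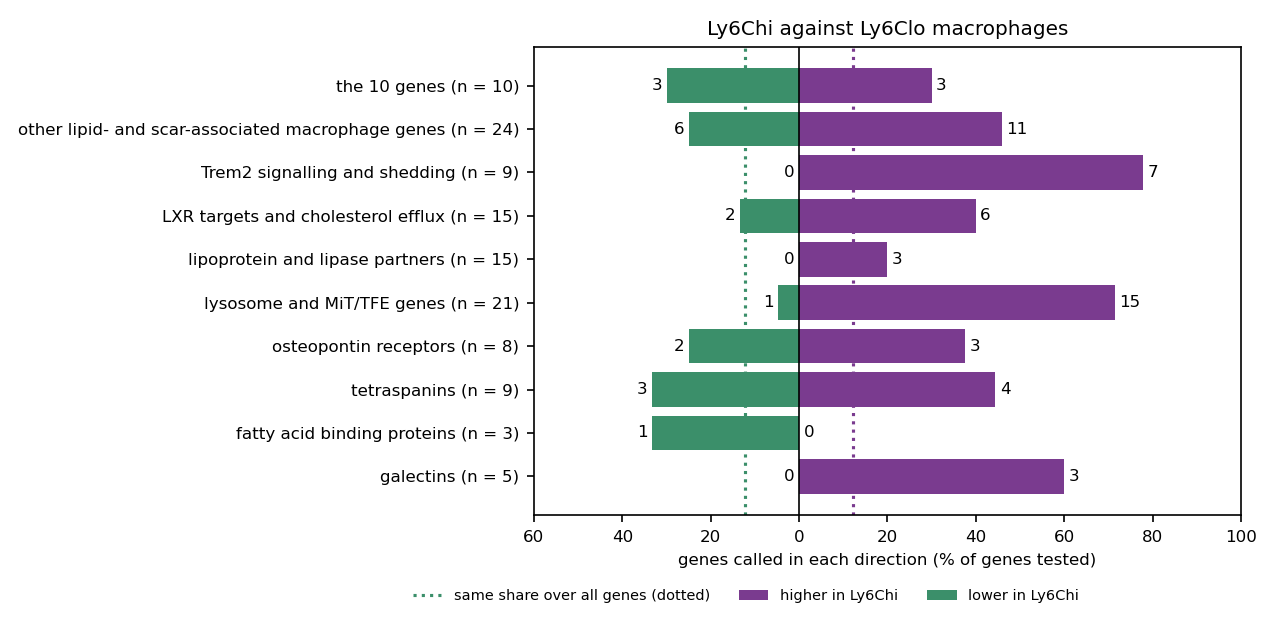
Share of the genes of each list called higher (right) or lower (left) in Ly6Chi than in Ly6Clo macrophages, with the number of genes at the bar end and the share over all genes as dotted lines (12.3% higher, 12.2% lower). The lists of TREM2 signalling (7 of 9) and lysosome genes (15 of 21) reach furthest to the right.

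The populations were also compared with DBA-sorted cells and neutrophils, in comparisons that share libraries with each other. In DBA-sorted cells Spp1 was at 453, 345, 324 and 642 CPM, above every leukocyte library, in which it was at 5.18 to 58.1 CPM. Its log2 fold change was 3.99 ± 0.40 over neutrophils (adjusted p = 0.00014), 3.73 ± 0.37 over Ly6Chi (0.000162) and 4.96 ± 0.62 over Ly6Clo macrophages (0.000875). Such a separation was common, as DBA-sorted and neutrophil libraries did not overlap for 9766 of 17045 genes. The same held for 9121 of 17095 genes against Ly6Chi and 8855 of 17724 against Ly6Clo macrophages. Trem2 was at 0 to 7.07 CPM in DBA-sorted cells, Gpnmb at 0 to 1.46 CPM and Lgals3 at 4.47 to 17.7 CPM, and all 3 were lower there than in Ly6Chi and in Ly6Clo macrophages. For Trem2 the DBA-sorted and Ly6Clo libraries overlapped, and its call against Ly6Clo (-3.78, adjusted p = 0.0047) was lost without the block (-3.14, adjusted p = 0.057). Lgals3, the member furthest below the macrophages, differed by -5.53 ± 0.33 from Ly6Chi (adjusted p = 1.8e-05) and by -4.17 ± 0.30 from Ly6Clo (7.96e-05). In all, 5 genes were higher and 3 lower in DBA-sorted cells than in Ly6Chi (background 51.4% called, 27.5% higher and 23.9% lower). Against Ly6Clo 4 were higher and 3 lower (46.7% called, 24.8% higher and 21.8% lower), and against neutrophils 1 was higher and 2 were lower (54.0% called, 27.9% higher and 26.0% lower). Gpnmb (-3.26, adjusted p = 0.057 by edgeR) and Apoe (0.59, 0.0633) did not pass against neutrophils. Both passed in the edgeR fit of all 16 libraries (-3.07 and 0.78, adjusted p = 0.00256 and 0.0354), and Gpnmb also by DESeq2 (-3.43, adjusted p = 0.0022). The genes higher in DBA-sorted cells than in both macrophage populations were Spp1, Cd63, Abca1 and Fabp5. The Abca1 difference from Ly6Clo (0.89 ± 0.27, adjusted p = 0.0351) did not pass without any 1 of 6 libraries, all but the BALB/c Ift88Orpk ones (adjusted p = 0.0952 to 0.16), nor without the block (0.281).

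In neutrophils Cd9 was at 573, 276, 243 and 333 CPM, the highest level of this gene in any population. It exceeded Ly6Chi by 3.95 ± 0.33 on the log2 scale (adjusted p = 7.37e-05) and Ly6Clo macrophages by 2.08 ± 0.31 (0.000897). Cd63 was at 37.1, 34.3, 38.5 and 23.4 CPM in neutrophils and exceeded Ly6Chi by 2.49 ± 0.22 (adjusted p = 8.52e-05) and Ly6Clo by 1.69 ± 0.27 (0.00121). Against Ly6Chi macrophages 4 of the 10 genes were higher and 5 lower in neutrophils (background 47.5% called, 23.3% higher and 24.1% lower), and against Ly6Clo 3 were higher and none lower by edgeR (49.6% called, 23.9% higher and 25.7% lower). Trem2 was at -1.36 there (adjusted p = 0.0568) and passed by DESeq2 (-1.28, adjusted p = 0.0201). Spp1 was at 0.79 against Ly6Clo (adjusted p = 0.0568) and also passed by DESeq2 (0.86, adjusted p = 0.0178). Besides Cd9 and Cd63, only Fabp5 was called higher than in both macrophage populations. Trem2 (-2.20 ± 0.28, adjusted p = 0.000537), Gpnmb (-2.59 ± 0.41, 0.00138), Lgals3 (-0.98 ± 0.21, 0.0061), Lpl (-1.07 ± 0.19, 0.00226) and Apoe (-0.77 ± 0.27, 0.0416) were lower than in Ly6Chi. The Apoe call was lost without any 1 of 6 libraries, both C57BL/6 pairs and the BALB/c Ift88Orpk pair (adjusted p = 0.0549 to 0.105). It was also lost with RLE factors (0.0533), upper-quartile factors (0.0571), a filter of 5 CPM in 2 libraries (0.0515) and no block (0.0679). Without the block Fabp5 did not pass against Ly6Chi (0.94, adjusted p = 0.147), and in the fit of all 16 libraries Lpl did not (-1.14, adjusted p = 0.0917). Abca1 was higher than in Ly6Chi (0.85 ± 0.26, adjusted p = 0.0272), a call lost without either library of the C57BL/6 Ift88Orpk or of the BALB/c wild-type pair (0.0946 to 0.108) and without the block (0.264). Markers of Kupffer cells summed to 1212 to 2030 CPM in the neutrophil libraries, against 61.4 to 159.5 CPM in Ly6Chi and 134.9 to 312 CPM in Ly6Clo libraries. Their part in these levels was not tested.

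Ift88Orpk was then compared with wild type within each population. In the fit of all 16 libraries, in which the strains are the replicates, none of 21534 genes was called in any of the 4 populations (edgeR, background 0.0% in each). At an unadjusted p under 0.05 there were 1140, 934, 408 and 348 genes in DBA-sorted cells, neutrophils, Ly6Chi and Ly6Clo macrophages, and DESeq2 called 83, 26, 3 and 11. None of the 10 genes was called by edgeR, and their genotype values are given as levels and ratios of single libraries, whose intervals cover counting error only. The fitted log2 values of the 10 genes lay mostly above 0, in 8, 10, 9 and 9 of them in DBA-sorted cells, neutrophils, Ly6Chi and Ly6Clo macrophages, against 55.1, 55.7, 48.5 and 50.5% of all genes. Their median was 0.99, 0.36, 0.38 and 1.14 in these populations, against 0.04, 0.05, 0.00 and 0.00 over all genes.

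Abca1, whose transporter passes cholesterol to APOE and other apolipoproteins, was higher in Ift88Orpk in all 8 pairs of strain and population. In BALB/c it was at 293.5 CPM in Ift88Orpk and 145.7 CPM in wild-type DBA-sorted cells, 262.8 and 124.3 CPM in neutrophils, 198.2 and 39.2 CPM in Ly6Chi, and 331.1 and 82.1 CPM in Ly6Clo macrophages. In C57BL/6 it was at 346 and 199.8 CPM in Ift88Orpk and wild-type DBA-sorted cells, 237 and 61.7 CPM in neutrophils, 106.9 and 57.7 CPM in Ly6Chi, and 167.8 and 68.6 CPM in Ly6Clo macrophages. Within each population both Ift88Orpk libraries were above both wild-type ones, as they were for 15.6% of 21534 genes in DBA-sorted cells, 13.9% in neutrophils, 12.2% in Ly6Chi, 13% in Ly6Clo macrophages, and 0.237% in all 4 populations. The ratios ran from 1.73-fold in C57BL/6 DBA-sorted cells to 5.05-fold in BALB/c Ly6Chi macrophages (counting interval 4.66 to 5.48). Of 13726 genes, 1.5% were higher in Ift88Orpk in all 8 pairs, and 0.0729% were at least 1.5-fold higher in each, Abca1 among them. Cd63 was also higher in all 8 pairs (1.08- to 4.18-fold), but in BALB/c neutrophils, at 37.1 CPM in Ift88Orpk and 34.3 CPM in wild type, the counting interval included 1. With CPM by gene total alone that Cd63 ratio was 0.834, while the Abca1 ratio of the same pair was 1.63 (2.11 with TMM scaling). With mitochondrial genes left out of the total it was 1.499, so that being 1.5-fold higher in each pair depends on the scaling. The share of counts from mitochondrial genes also differed with genotype. In BALB/c it was 3.15% in Ift88Orpk and 11.05% in wild-type neutrophils, 2.98 and 6.66% in Ly6Chi, and 2.64 and 4.78% in Ly6Clo macrophages. In C57BL/6 it was 5.22 and 7.74% in neutrophils, 5.97 and 9.56% in Ly6Chi, and 5.55 and 7.67% in Ly6Clo macrophages of Ift88Orpk and wild type, lower in Ift88Orpk in all 6 leukocyte pairs. In DBA-sorted cells it was 12.4 and 5.39% in BALB/c and 8.26 and 14.75% in C57BL/6. Its part in the Abca1 ratios was not tested. The fitted Abca1 log2 change was 0.90 ± 0.37 in DBA-sorted cells (adjusted p = 0.908), and 1.51 ± 0.38, 1.61 ± 0.38 and 1.65 ± 0.38 in neutrophils, Ly6Chi and Ly6Clo macrophages (adjusted p = 1.0 in each).

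**Figure D4:**
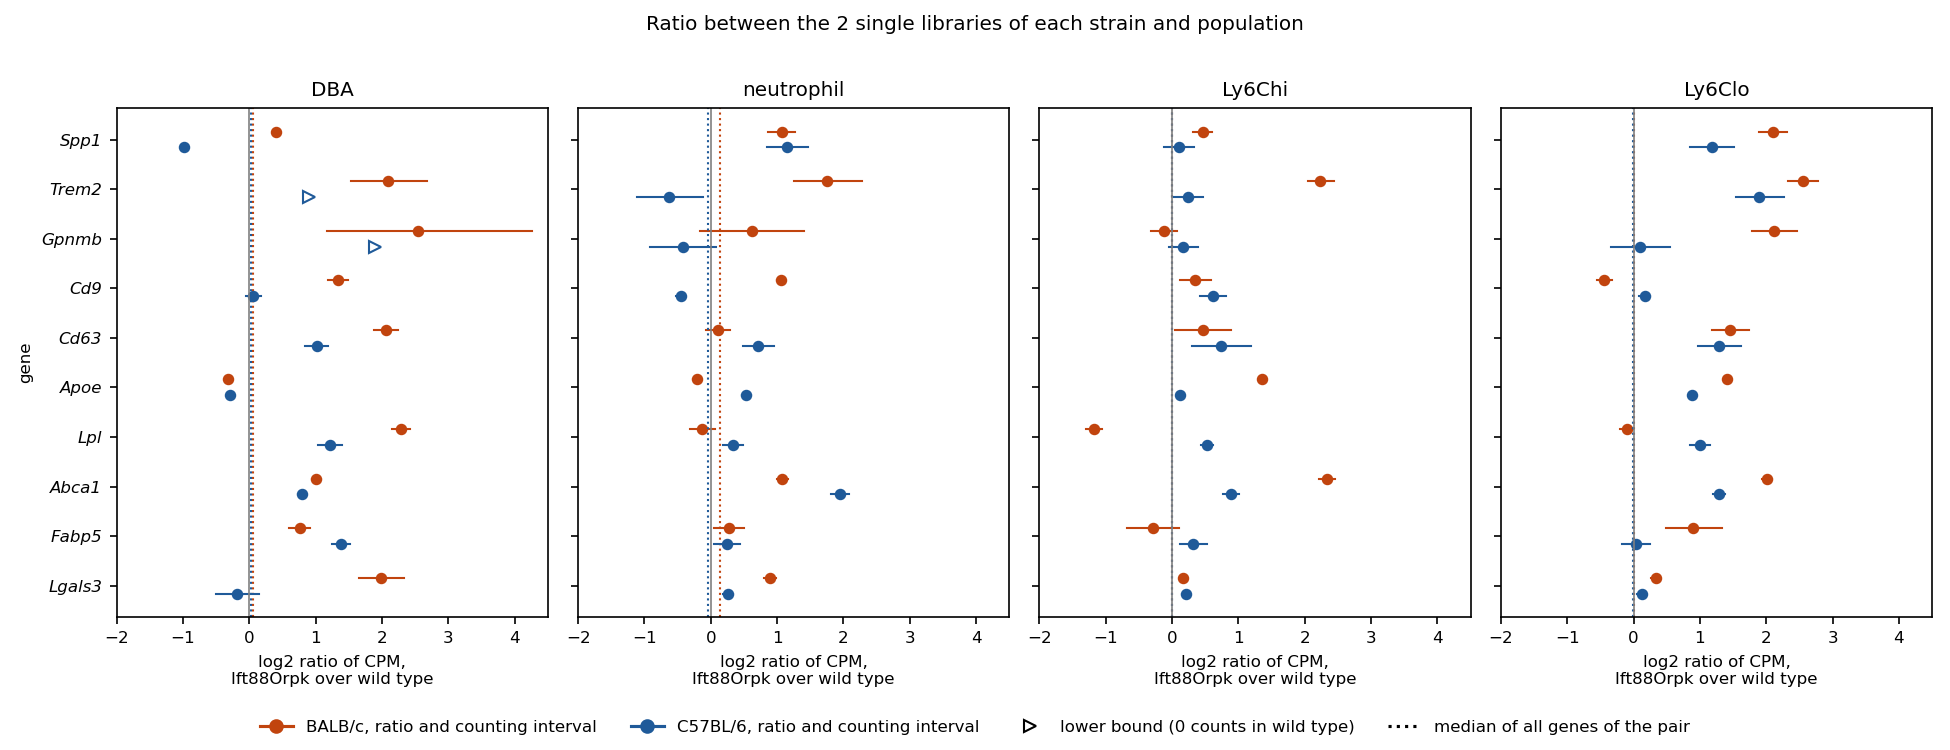
Log2 ratio of CPM, Ift88Orpk over wild type, of each gene in the 4 populations, 1 point per strain with its 95% counting interval; open triangles are lower bounds against 0 counts and dotted lines the median of all genes of a pair. Abca1 lies right of 0 in both strains in each panel, and Trem2 reaches 5.86-fold in BALB/c Ly6Clo macrophages.

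In Ly6Clo macrophages none of the 10 genes passed the genotype test, and the values that follow describe single libraries. At least 2-fold higher in Ift88Orpk were 6 of 10 genes in BALB/c (background 5.17% of genes with at least 5 CPM in a library of the pair) and 5 of 9 in C57BL/6 (2.49%). Spp1, Trem2, Cd63 and Abca1 were so in both strains, as were 0.787% of all genes. No gene of the 10 was 2-fold lower in either strain.

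Trem2 was at 55.4 CPM in Ift88Orpk and 9.46 CPM in wild-type Ly6Clo macrophages of BALB/c (5.86-fold, 95% interval 5.02 to 6.87) and at 15.8 and 4.25 CPM in those of C57BL/6 (3.72-fold, 2.92 to 4.79). Spp1 was at 50.5 and 11.8 CPM in Ift88Orpk and wild type of BALB/c (4.30-fold, 3.73 to 4.97) and at 11.7 and 5.18 CPM in those of C57BL/6 (2.26-fold, 1.80 to 2.87). Both genes were also higher in BALB/c than in C57BL/6 of the same genotype, and for Spp1 the C57BL/6 Ift88Orpk library lay near the BALB/c wild-type one. Cd63 was at 19.98 and 7.27 CPM in Ift88Orpk and wild type of BALB/c and at 13.5 and 5.52 CPM in those of C57BL/6. Apoe was at 1056 and 396 CPM in Ift88Orpk and wild type of BALB/c (2.67-fold, 2.60 to 2.74) and at 635 and 343 CPM in those of C57BL/6 (1.85-fold, 1.80 to 1.91). For both genes the 2 Ift88Orpk libraries were above the 2 wild-type ones, as for 13% of all genes. Gpnmb was at 19.7 and 4.53 CPM in Ift88Orpk and wild type of BALB/c (4.35-fold, 3.46 to 5.52) but at 3.89 and 3.64 CPM in those of C57BL/6, within counting error. Lpl was the reverse, at 73.0 and 78.5 CPM in Ift88Orpk and wild type of BALB/c and 48.4 and 24.2 CPM in those of C57BL/6 (2.0-fold, 1.80 to 2.23).

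Fitted over both strains, 5 of the 10 genes had an unadjusted p under 0.05 in Ly6Clo macrophages, beside 1.62% of all genes. The log2 values were 2.23 ± 0.67 for Trem2, 1.65 ± 0.36 for Spp1, 1.65 ± 0.38 for Abca1, 1.38 ± 0.32 for Cd63 and 1.15 ± 0.34 for Apoe, each with an adjusted p of 1.0. Cd9, Lgals3 and Fabp5 were within 1.87-fold in both strains, and Cd9 was lower in Ift88Orpk of BALB/c (0.74-fold) and near 1 in C57BL/6 (1.13-fold).

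Markers of macrophages in general and of other cells also differed between these libraries. The 10 general macrophage markers had fitted log2 values above 0 in all 10 (median 1.25, against 1.14 for the genes described here), none of them called, and summed to 5420 and 4447 CPM in Ift88Orpk and wild type of BALB/c and 4874 and 4554 CPM in those of C57BL/6. Dendritic cell markers were lower in Ift88Orpk of both strains, at 287 and 586.9 CPM in BALB/c and 504.6 and 662.9 CPM in C57BL/6. In BALB/c Ly6Clo macrophages the summed markers of Kupffer cells were at 134.9 CPM in Ift88Orpk and 312 CPM in wild type. Those of hepatocytes, which also make Apoe, were at 554.5 and 1711 CPM, so that both sums were lower in Ift88Orpk. In C57BL/6 both sums were instead higher in Ift88Orpk, at 214.5 and 144.6 CPM for Kupffer cells and 1399 and 961.9 CPM for hepatocytes in Ift88Orpk and wild type. All 9 Kupffer and all 11 hepatocyte markers were detected in these 4 libraries. Markers of Ly6Chi monocytes were at 2467 and 1364 CPM in BALB/c Ift88Orpk and wild type and at 1231 and 1042 CPM in C57BL/6, markers of T and NK cells at 833 and 173.9 CPM in BALB/c and 866 and 950 CPM in C57BL/6, and markers of neutrophils at 643.9 and 1616 CPM in BALB/c and 664 and 304.5 CPM in C57BL/6. The part of these cells in the ratios was not tested.

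In Ly6Chi macrophages the ratios of the strains were less alike, a difference not tested within this population. Of the 10 genes, 3 were at least 2-fold higher in BALB/c Ift88Orpk (background 4.74%), 1 was 2-fold lower (4.25%), and none was 2-fold higher or lower in C57BL/6 (1.47% higher and 0.989% lower). Trem2 was at 66.4 and 14.1 CPM in Ift88Orpk and wild type of BALB/c (4.71-fold, counting interval 4.12 to 5.41), against 24.1 and 20.4 CPM in those of C57BL/6 (1.18-fold, 1.02 to 1.38). Apoe was at 1298 and 505.5 CPM in BALB/c (2.57-fold, 2.51 to 2.63), against 501 and 460.5 CPM in C57BL/6 Ift88Orpk and wild type. Lpl, which releases fatty acids from lipoproteins, was lower in BALB/c Ift88Orpk, at 50.6 CPM in Ift88Orpk and 114.8 CPM in wild type (0.44-fold, 0.41 to 0.48), and was at 174.1 and 120.7 CPM in Ift88Orpk and wild type of C57BL/6. Of the Ly6Chi libraries, the BALB/c Ift88Orpk one was the highest in Trem2 and Apoe and the lowest in Lpl. Gpnmb (0.92- and 1.13-fold in BALB/c and C57BL/6) and Fabp5 (0.82- and 1.25-fold) stayed near 1, and Lgals3 was 1.12- and 1.15-fold higher. Abca1 was the only gene with an unadjusted p under 0.05 in Ly6Chi, beside 1.89% of all genes. Kupffer cell markers were at 61.4 CPM in Ift88Orpk and 120.9 CPM in wild type in BALB/c Ly6Chi macrophages. Hepatocyte markers were at 696.5 and 1908 CPM, so that both sums were lower in Ift88Orpk. The Kupffer cell marker Folr2 was at 0 in that Ift88Orpk library. The 10 general macrophage markers had fitted values above 0 in 9 (median 0.64), though their sum, at 13060 and 14770 CPM in BALB/c and 13720 and 19090 CPM in C57BL/6, was lower in Ift88Orpk. In C57BL/6 the sums were at 157.4 and 159.5 CPM for Kupffer cells and 1999 and 1713 CPM for hepatocytes in Ift88Orpk and wild type. Their part in the ratios was not tested.

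In DBA-sorted cells 6 of 9 genes with at least 5 CPM were 2-fold higher in Ift88Orpk in BALB/c (background 12%) and 3 of 8 in C57BL/6 (3.14%). Lpl was at 124.5 and 25.5 CPM in Ift88Orpk and wild type of BALB/c (4.88-fold, 95% interval 4.43 to 5.37) and at 47.3 and 20.3 CPM in those of C57BL/6 (2.33-fold, 2.05 to 2.64). Cd63 was at 63.8 and 15.3 CPM in BALB/c Ift88Orpk and wild type (4.18-fold, 3.68 to 4.74) and 45.4 and 22.5 CPM in C57BL/6 (2.02-fold, 1.79 to 2.28). For both genes the Ift88Orpk libraries were above both wild types, as for 15.6% of all genes. Cd63 was also the only gene of the 10 that DESeq2 called for genotype, with a log2 change of 1.5 (adjusted p = 0.024), against 1.54 ± 0.32 by edgeR (adjusted p = 0.483). Fabp5 was at 43.0 and 25.4 CPM in BALB/c Ift88Orpk and wild type and at 94.1 and 36.1 CPM in C57BL/6. Lgals3 was at 17.7 and 4.47 CPM in BALB/c Ift88Orpk and wild type (3.96-fold, 3.14 to 5.05) but at 7.68 and 8.72 CPM in C57BL/6, where the interval included 1. Trem2 and Gpnmb had 0 counts in the C57BL/6 wild-type library and 8 and 16 counts in the Ift88Orpk one. With the 0 set to 3 counts their ratios were 1.86 and 3.72, values without a counting interval.

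Spp1 differed in direction between the strains in DBA-sorted cells, at 453 and 345 CPM in Ift88Orpk and wild type of BALB/c (1.32-fold, 95% interval 1.28 to 1.36) but at 324 and 642 CPM in those of C57BL/6 (0.505-fold, 0.49 to 0.52). The 12 cholangiocyte markers summed to 737.5 and 523.7 CPM in BALB/c Ift88Orpk and wild type and to 552.5 and 968 CPM in C57BL/6. Fitted over both strains, 5 of these 12 had a log2 value above 0 (median -0.07). Apoe was at 524 and 655 CPM in BALB/c and 547 and 667 CPM in C57BL/6 Ift88Orpk and wild type, 0.80- and 0.82-fold. Stellate cell and fibroblast markers were at 9784 and 1891 CPM in BALB/c Ift88Orpk and wild type and at 4238 and 2116 CPM in C57BL/6. Markers of Ly6Chi monocytes were at 1226 and 276.5 CPM in BALB/c, where Ly6c2 and Chil3 were at 0 in the wild type, and at 484 and 445.6 CPM in C57BL/6. General macrophage markers were at 787.5 and 417.4 CPM in BALB/c Ift88Orpk and wild type and at 614.6 and 716.2 CPM in C57BL/6. Those of neutrophils were at 146.2 and 4.773 CPM in BALB/c and at 11.99 and 19.16 CPM in C57BL/6. Both sums were thus higher in Ift88Orpk of BALB/c and lower in that of C57BL/6. The fitted median log2 value was 0.377 for the macrophage and 2.288 for the neutrophil markers. The part of these cells in the Lpl, Cd63, Trem2, Gpnmb and Lgals3 ratios was not tested. At an unadjusted p under 0.05 there were 6 of the 10 genes (Trem2, Gpnmb, Cd63, Lpl, Abca1 and Fabp5), beside 5.29% of all genes.

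In neutrophils 4 of 9 genes were 2-fold higher in BALB/c Ift88Orpk (background 10.4%) and 2 of 10 in C57BL/6 (8.05%), with TMM scaling. Spp1 was at 40.8 and 19.4 CPM in Ift88Orpk and wild type of BALB/c (2.10-fold, 95% interval 1.82 to 2.42) and at 29.8 and 13.4 CPM in those of C57BL/6 (2.22-fold, 1.80 to 2.76). With Abca1 it was 2-fold higher in both strains, as were 1.18% of all genes. Trem2, at 9.19 and 2.71 CPM in BALB/c Ift88Orpk and wild type but 5.04 and 7.76 CPM in C57BL/6, and Cd9, at 573 and 276 CPM in BALB/c but 243 and 333 CPM in C57BL/6, went opposite ways in the 2 strains. With CPM by gene total alone, 1 gene rather than 4 was 2-fold higher in BALB/c neutrophils. Spp1 and Abca1 had an unadjusted p under 0.05, beside 4.34% of all genes. General macrophage markers summed to 3135 and 2911 CPM in Ift88Orpk and wild-type neutrophils of BALB/c and 5613 and 9799 CPM in those of C57BL/6. Their fitted log2 values were above 0 in 4 of 10 (median -0.04). Hepatocyte markers were at 2749 and 5349 CPM in BALB/c and 3567 and 2377 CPM in C57BL/6, and sinusoidal endothelial markers at 847 and 3327 CPM in BALB/c and 2056 and 771.5 CPM in C57BL/6. Their part in the ratios was not tested.

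Of the lists of partner genes no gene was called for genotype in any population. In Ly6Clo macrophages 21 of 25 other lipid- and scar-associated macrophage genes had a fitted log2 value above 0 (median 0.33) and 20 of 21 lysosome and MiT/TFE genes (median 0.25), against 50.5% of all genes and a median of 0.00. The general macrophage markers had 10 of 10 above 0 and a median of 1.25, further from 0 than the median of either list, and share Cd68 with the first. The smallest p in these lists belonged to the protease Mmp14 (1.69 ± 0.49) and to Mitf, a MiT/TFE factor (1.04 ± 0.32). Grn (0.67 ± 0.19), the galectins Lgals1 (0.77 ± 0.28) and Lgals9 (0.48 ± 0.19) and the lysosomal protease Lgmn (1.18 ± 0.39) were also above 0 at an unadjusted p under 0.05, while Apoc3, made by hepatocytes, was at -1.28 ± 0.52. In Ly6Chi macrophages the medians were 0.28 and 0.17 for the same 2 lists, and 0.64 for the general macrophage markers. There the sterol exporter Abcg1 (0.76 ± 0.24) and Mylip (0.51 ± 0.21), both LXR targets like Abca1, stood at an unadjusted p of 0.013 and 0.0426, with an adjusted p of 1.0. Of the 15 LXR and cholesterol genes as a whole, 9 were above 0 in Ly6Clo (median 0.17) and 10 in Ly6Chi (median 0.04).

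Between the strains edgeR called 1 of the 10 genes, Fabp5 in Ly6Chi macrophages. DESeq2 called it there too, and also Trem2 in DBA-sorted cells and Spp1 and Fabp5 in Ly6Clo macrophages. Fabp5, the carrier of fatty acids, was at 5.98 CPM in BALB/c Ift88Orpk and 7.31 CPM in BALB/c wild-type Ly6Chi macrophages, against 30.0 and 24.1 CPM in C57BL/6 Ift88Orpk and wild type. In Ly6Clo macrophages it was at 6.75 and 3.61 CPM in BALB/c Ift88Orpk and wild type, against 16.3 and 15.9 CPM in C57BL/6. The strains did not overlap in either population, with BALB/c the lower one, as for 25.9% of all genes in Ly6Chi and 23.1% in Ly6Clo. The log2 fold change, BALB/c over C57BL/6, was -2.02 ± 0.31 in Ly6Chi (adjusted p = 0.0479, background 0.334% of genes called) and -1.69 ± 0.31 in Ly6Clo (adjusted p = 0.101, background 0.306%), where it passed by DESeq2 (-1.68, adjusted p = 0.000925). The call in Ly6Chi was lost without any 1 of the 4 Ly6Chi libraries (-2.33 to -1.72, adjusted p = 0.358 to 1.0), and with upper-quartile factors (0.0503), a filter of 5 CPM in 2 libraries (0.0621) or a strain by genotype term (0.0501). Markers of other leukocytes in Ly6Chi libraries also differed by strain. T and NK cell markers summed to 9.32 and 6.42 CPM in BALB/c Ift88Orpk and wild type, against 125.7 and 137.3 CPM in C57BL/6, and neutrophil markers to 158 and 120 CPM in BALB/c, against 1282 and 816.5 CPM in C57BL/6. Fabp5 itself was at 21.3 to 43.2 CPM in neutrophil libraries. The part of these cells in the Fabp5 difference was not tested. In DBA-sorted cells and neutrophils edgeR called none of the 10 for strain, beside 0.297% and 1.34% of all genes. Fabp5 counts could include reads of the near copy Fabp5l2, which itself had 0 to 55 counts per library.

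Spp1 was higher in BALB/c than in C57BL/6 macrophages of the same genotype, by 1.66 ± 0.36 in Ly6Clo (adjusted p = 0.174) and 1.19 ± 0.35 in Ly6Chi (adjusted p = 0.323), neither of which passed by edgeR on all 16 libraries. It passed in Ly6Clo by DESeq2 (1.67, adjusted p = 0.00408) and in Ly6Chi in a fit of its 4 libraries alone (1.23, adjusted p = 0.0403). Trem2 in DBA-sorted cells was at 7.07 and 1.66 CPM in BALB/c Ift88Orpk and wild type, against 0.35 and 0 CPM in C57BL/6 (4.70 ± 0.94, adjusted p = 0.131), and passed by DESeq2 (5.02, adjusted p = 0.000504). A term for the difference of the genotype effect between strains, BALB/c minus C57BL/6 and shared by the populations, called none of 21534 genes (background 0.0%; 1202 at an unadjusted p under 0.05, 5.58%, and 227 by DESeq2). The populations serve as the replicates of this term, so its SE and p-value measure spread between populations and not between mice. The value of the term was 1.38 ± 0.55 for Trem2 (adjusted p = 0.817) and 0.66 ± 0.27 for Spp1 (adjusted p = 0.852). A larger Ift88Orpk difference in BALB/c than in C57BL/6 is thus not shown by this test for either gene.

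The genes whose profiles over the 16 libraries were most like each member were named by Pearson's r of log2 (CPM + 1) among 12123 genes. These values describe the libraries, which differ above all by population. Lgals3 was most like Mpeg1, a pore-forming protein of macrophages (0.99), and Gpnmb most like Fcgr1, the high-affinity IgG receptor (0.96), Galns (0.94) and Ms4a6d (0.94). Trem2 was most like Adap2 (0.95), Vasn and Ntpcr, Cd9 most like Sema7a (0.97), and Spp1 most like Fignl2 (0.97). Apoe was most like the lysosomal protease gene Lgmn (0.91). Abca1 (Dtnbp1, 0.82) and Lpl (Rassf1, 0.79) had the least close companions, and Fabp5 (Nck1, 0.91) and Cd63 (Reck, 0.94) lay between.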

How the data were processed

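Gene-level read counts of 16 libraries, 1 per combination of strain, genotype and sorted population, were analysed as the authors deposited them. Per the labels' protocols, RNA was pooled over mice, had an integrity number over 7, and was sequenced as paired 75-base reads after ribosomal RNA reduction. The submitters' processing notes name bcl2fastq 2.18.0.12, STAR, HTSeq-count 0.9.1, Cufflinks 2.2.1 and the build GRCm38.p4. The strand setting of the counting is not given in the sources used here, so reads of overlapping antisense genes cannot be told apart. Summary lines that name no gene held 42.7 to 55.2% of each column and were left out, and the remaining 48795 identifiers were paired with symbols for 48349.

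From these counts edgeR 4.0.16 in R 4.3.3 gave TMM factors, the filterByExpr filter and quasi-likelihood tests. P-values were adjusted by Benjamini-Hochberg across every tested gene, and 0.05 was the threshold. Populations were compared in 8 libraries with the combination of strain and genotype as block. Genotype and strain were fitted per population in all 16 libraries, so that all populations share 1 estimate of the spread, and a strain by genotype term was shared by the populations. Single pairs are ratios of CPM with an exact binomial 95% counting interval, for genes with at least 5 CPM in a library of the pair, and a library at 0 was set to 3 counts. Intervals cover counting error only, and ratios with a library set to 3 counts have no interval. SE is the fold change divided by the root of F. Exon lengths were taken from GENCODE on GRCm38. The code of the tests was run on simulated counts. These had the same mean of a gene in every library, apart from the changes put in, and a fixed spread, unlike these data. No result here rests on them. Alternatives were RLE and upper-quartile factors, other filters, DESeq2 1.42.0, no block, other library sets and leaving out each library. The genes, the gene lists and the tests were chosen with earlier results of these data known. All 10 genes are named, and of each other list at most 4 called genes by p, or 2 where none was called. Some genes that these rules name are not reported here. For likeness, the 3 highest r among genes with at least 5 CPM in 2 libraries were kept.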

Additional observations from a re-analysis of the deposited data

Results flagged for a closer look

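In 4 of 40 groups of 4 libraries, 10 genes in 4 populations, 1 library lay so far from the other 3 that the gap exceeded Dixon's 95% critical value for its share of the whole range, which chance exceeds in about 1 of 20 groups. These 10% stand beside 11.2% of the 82664 such groups of all tested genes. In Ly6Clo macrophages the BALB/c Ift88Orpk library stood apart in Spp1 (50.5 CPM, the others at 5.18 to 11.8 CPM) and in Gpnmb (19.7 CPM, the others at 3.64 to 4.53 CPM). In Ly6Chi macrophages the BALB/c Ift88Orpk library stood apart in Apoe (1298 CPM, the others at 460.5 to 505.5 CPM). In DBA-sorted cells the BALB/c wild-type library was the low one in Cd9 (25.0 CPM, the others at 62.7 to 65.5 CPM). Since each group of a strain and genotype was 1 library, the part of the pool, the sort and the library in these values was not tested.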

How the results depend on the processing

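Of 400 counts of called genes or members recomputed under the alternatives, 344 stayed within 1.5 times, as did 60 of 64 counts of pairs. Without the block (no replicate block; the labels number no replicates, and the block is the combination of strain and genotype) 1861 genes and 2 members, Cd9 and Lgals3, were called between Ly6Chi and Ly6Clo, and with all 16 libraries 1467 genes and 2 members. Leaving out each library gave 2615 to 3416 genes and 4 to 8 members there. DESeq2 called 5 members and the fit of all 16 libraries 7 between DBA-sorted cells and neutrophils, and no filter gave 6 and DESeq2 5 between neutrophils and Ly6Clo. For genotype, DESeq2 called 83 genes and 1 member in DBA-sorted cells, 26 genes in neutrophils, 3 in Ly6Chi and 11 in Ly6Clo. The 4 DBA libraries alone gave 1 gene, an added strain by genotype term 1 in Ly6Clo, and leaving out a library 0 to 48 in DBA-sorted cells, with 48 without the C57BL/6 wild-type and 47 without the C57BL/6 Ift88Orpk library. For strain, DESeq2 called 486 genes and 1 member in DBA-sorted cells, 929 genes in neutrophils, 517 in Ly6Chi, and 394 and 2 members in Ly6Clo. The 4 libraries of a population alone gave 149 genes in neutrophils, 359 and 2 members in Ly6Chi and 158 in Ly6Clo, and no filter 124 in Ly6Chi and 103 in Ly6Clo. The call of Fabp5 in Ly6Chi was lost (0 members) with upper-quartile factors, a filter of 5 CPM in 2 libraries, an added strain by genotype term, or 1 library fewer (0 to 0). Leaving out a library gave 4 to 11 genes in Ly6Chi, 5 to 7 in Ly6Clo and 123 to 133 in neutrophils. The strain by genotype term called 227 genes by DESeq2, 116 in the 12 leukocyte libraries and 0 to 187 with a library left out, of which 180 to 187 without a DBA library. In the pairs, 1 member was 2-fold lower in C57BL/6 DBA-sorted cells with RLE factors or mitochondrial genes left out, and 1 was 2-fold higher in BALB/c neutrophils with CPM by gene total or mitochondrial genes left out. Under these settings Fabp5 in BALB/c neutrophils turned direction, at 0.935 and 0.859 against 1.21. They moved all ratios of that pair by -0.37 and -0.50 on the log2 scale, and those of C57BL/6 neutrophils by 0.15 and 0.12. Upper-quartile factors moved DBA over neutrophil by 0.12. The causes of the other changes were not tested. Trem2 and Gpnmb in DBA-sorted cells rested on 0 to 150 counts.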

Other observations

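Abca1 was 1 of 10 genes at least 1.5-fold higher in Ift88Orpk in all 8 pairs, a set chosen after its values were seen and given with no test. Its place in the set depends on the scaling. With mitochondrial genes left out of the total, its ratio in BALB/c neutrophils was 1.499. Col1a1, a fibrillar collagen chain, ran from 1.68- to 22.4-fold, and Tmem119 from 1.83- to 19.4-fold. The other 7 had a wild-type library at 0 counts, and such a pair passed with any counts in Ift88Orpk. For these genes only a lowest ratio can be given. Among them it was 1.71 for Mgp, 1.55 for Nos2, 11.7 for Il17d, 2.06 for Afp, 2.32 for H19 and 1.71 for Igf2, of which the last 3 are genes of fetal liver.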
